A study of Homo sapiens with 30 samples.

Results

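The regions described here are the 5'-most exon bins of genes: for each gene cut into at least 3 exon bins, the bin that comes first in the direction of transcription. An exon bin is a stretch of exonic sequence on which the annotated transcripts of a gene agree, and the reads that overlap it were counted separately in every library. The rule gave 29191 bins, 1 per gene, of 652720 bins in 59360 genes. It used position only, so no measured value chose the members. Each bin was read as its share of all bin counts of its gene, which changes when a different first exon is used, when the rest of the gene changes alone, or when the coverage of transcript ends changes between libraries.

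Counts per bin came from poly(A) RNA-seq of 18 libraries in 6 groups of 3 separate cultures. Wild-type K562 cells, an erythroleukemia line carrying the BCR::ABL1 fusion, and wild-type HCT116 cells, a colorectal carcinoma line, were each cultured for 3 days with 10 µM of the DNMT1 inhibitor GSK3484862 (DNMT1i) or with 0.1% DMSO, the vehicle. The inhibitor is named as in the paper's results, and the paper's methods give another compound number for it. The speckle libraries came from a K562 clone in which both SON and SRRM2, core proteins of nuclear speckles, carry a dTAG degron at their own loci. This clone was derived from a single cell, the SRRM2 tag was added on top of the SON knock-in clone, and the tagged SRRM2 lacks its last residues. Its cells received 500 nM dTAG-13, which recruits the tagged proteins for degradation, or 0.1% DMSO for 6 h. Treated and control cells were compared within a line, and the lines were compared in their DMSO cells and in their response to DNMT1i. The other 12 libraries of the series were not analysed here. Summed counts of 8 K562 marker genes were 479 to 646 gene counts per 1000000 (CPM) in the K562 and speckle libraries and 8.19 to 10.4 CPM in HCT116, and those of 8 HCT116 marker genes were 3678 to 4546 CPM in HCT116 and 432 to 1086 CPM in the others.

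DNMT1 copies methylation of CpG dinucleotides onto newly made DNA strands. Many genes carry more than one promoter, and an upstream promoter that is methylated is usually silent. When such a promoter fires, transcripts start at an exon that is otherwise unread and then often splice into the same downstream exons, so that reads in the first exon rise while the body of the gene changes little. DNA demethylation is known to switch on germline genes and promoters within repeats, and loss of methylation at a gene's main promoter raises all of its exons together.

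The 250 bases just upstream of the NXT2 and KRT10 bins are shown because both bins rose in share under DNMT1i in K562. The test result for KRT10 depended on single libraries. The windows also contrast one that holds CpG with one that has none. Both are from hg38, 5' to 3' on the strand of the gene, with each CpG in capitals. NXT2 (chrX:109535531-109535780, plus strand) held 6 CpG and KRT10 (chr17:40822615-40822864, minus strand) 0.
NXT2: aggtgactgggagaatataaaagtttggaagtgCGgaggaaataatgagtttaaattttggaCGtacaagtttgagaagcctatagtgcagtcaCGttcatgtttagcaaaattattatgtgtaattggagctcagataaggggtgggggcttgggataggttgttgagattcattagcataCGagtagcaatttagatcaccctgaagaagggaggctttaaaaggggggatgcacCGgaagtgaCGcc
KRT10: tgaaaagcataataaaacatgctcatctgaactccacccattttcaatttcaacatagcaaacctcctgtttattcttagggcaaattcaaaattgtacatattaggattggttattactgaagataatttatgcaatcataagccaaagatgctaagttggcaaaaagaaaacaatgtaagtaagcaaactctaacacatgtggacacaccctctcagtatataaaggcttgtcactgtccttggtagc

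Most 5'-most bins were short and thinly covered. Their median width was 76 bases. Of the 29191 bins, 13782 (47.2%) were exons of their own, separated by an intron from the next bin, and 15409 were contiguous with it. An annotated GENCODE 44 transcript start lay within 50 bases of 27110 of them. No count at all was recorded for 12774 bins in the 18 libraries. In the 11061 genes with a mean of at least 100 bin counts, the median share was 0.135% (quartiles 0.0127% and 0.810%), and 77.7% of bins held under 1% of their gene's counts. The typical 5'-most bin therefore held far less than its length would give: the median of share over share of exonic length was 0.185, against 0.447 for the 3'-most bins of the same genes. Shares over 10% were found for 320 bins (2.89%).

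The median share over these 11061 genes varied widely between libraries of a group. In K562 it was 0.0569%, 0.0788% and 0.0476% under DNMT1i and 0.0386%, 0.0219% and 0.0213% under DMSO. Every DNMT1i library was above every DMSO library, and the two-sided exact permutation test gave p = 0.1, the smallest that 3 against 3 libraries allow. With counts pooled over genes the K562 groups overlapped (exact permutation p = 0.3). In HCT116 the values were 0.0443%, 0.100% and 0.0778% under DNMT1i and 0.0478%, 0.0898% and 0.0664% under DMSO, which overlap (exact permutation p = 0.8). In the speckle clone they were 0.0592%, 0.0639% and 0.128% with dTAG-13 and 0.0532%, 0.0324% and 0.0730% with DMSO, which overlap as well (exact permutation p = 0.4). The dTAG-13 library with the highest median share is replicate 3, and its difference from the other dTAG-13 libraries exceeded the difference between the groups.

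**Figure D1:**
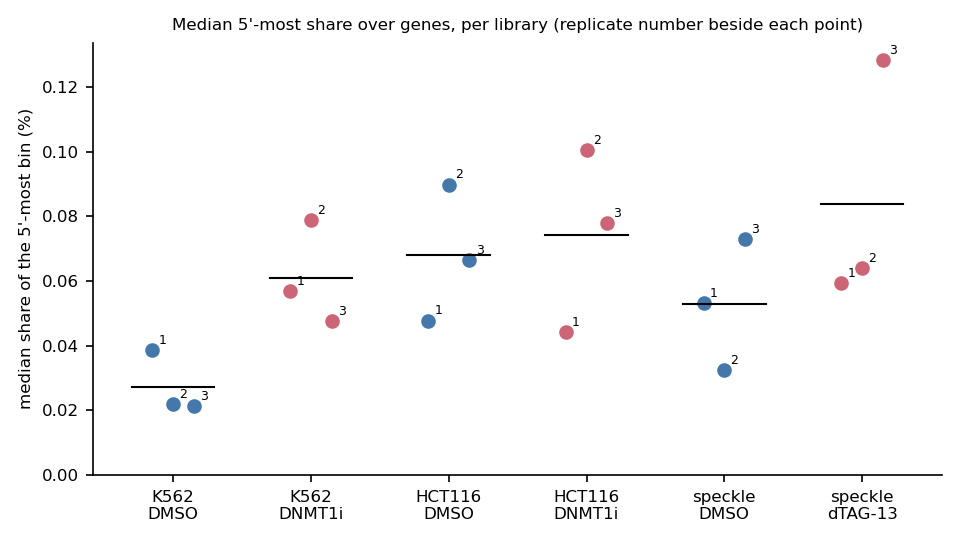
Median share of the 5'-most bin (%, vertical axis) over 11061 genes in each of the 18 libraries (points, with replicate number) and the mean of each group (bars). The K562 DNMT1i libraries lie above the K562 DMSO libraries, and the groups overlap in HCT116 and in the speckle clone.

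Each bin was tested against the other bins of its gene with edgeR's quasi-likelihood test, which gives the change in the odds of a read falling in that bin, and p-values were adjusted (Benjamini-Hochberg) over all bins tested in the comparison. A bin was called when its adjusted p was under 0.05. Only bins with a mean of at least 5 counts in genes with at least 10 counts elsewhere in both groups were tested: 3429 5'-most bins in K562, 3582 in HCT116, 3635 in the speckle clone and 3224 in the comparison of lines. A gene silent in one group could not enter this test, and such genes are described separately.

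Upon DNMT1 inhibition in K562, the 5'-most bins of NXT2, KRT10, IL16 and FDFT1 took a higher share of their genes' reads, and that of FADS2 a lower one. These were 4 higher and 1 lower of 3429 tested. Over all bins tested, 0.0191% were called higher and 0.00934% lower. All 4 higher bins are exons of their own, and none of their upstream windows was CpG-rich (observed over expected CpG above 0.6 and GC above 50%), whereas 79.5% of the tested bins had such a window. IL16 is named here after its values were seen. The count became 9 (7 higher) without K562 DMSO replicate 3, the library farthest from its group, with 8.60 and 8.58 for the chi-square per bin against replicates 1 and 2, which differed from each other by 1.32.

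NXT2 encodes a cofactor of the mRNA export receptor. Its 5'-most bin (chrX:109535781-109535977, plus strand) is a 197-base exon that precedes the start of the canonical transcript by 1063 bases. In K562 it held 69, 70 and 63 counts under DNMT1i and 3, 1 and 0 under DMSO, and no DMSO library came near a treated one. Its share was 5.47% ± 0.91 against 0.161% ± 0.17 (SD, n = 3 each), a log2 change in odds of 4.71 ± 0.42 (SE; adjusted p = 0.0011). Counts in the bin rose 53.2-fold in CPM, while the other bins of NXT2 rose 1.71-fold. In HCT116 the same bin held 388, 528 and 403 counts under DNMT1i and 3, 1 and 0 under DMSO, again without overlap. The share there was 11.3% ± 1.96 against 0.329% ± 0.375 (log2 change in odds 5.12 ± 0.43, adjusted p = 7.9e-07), and the other bins rose 8.18-fold. The bin held 0 counts in all 6 libraries of the speckle clone.

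KRT10, a keratin of differentiating epidermis, showed the change in K562. Its bin (chr17:40821959-40822614, minus strand) contains the annotated start of the canonical transcript and 627 coding bases. It held 35, 49 and 39 counts under DNMT1i and 4, 2 and 4 under DMSO. The share was 2.06% ± 0.468 against 0.226% ± 0.0653 (log2 change in odds 3.14 ± 0.35, adjusted p = 0.0072). Counts in the bin rose 11.6-fold and the other bins changed 1.26-fold. The call was lost without K562 DMSO replicate 1 or 2 or DNMT1i replicate 3, with adjusted p up to 0.0803. In HCT116 the bin held 5, 5 and 3 counts against 0, 0 and 1. In the speckle clone, itself made from K562 cells, it was read without any inhibitor, with 93, 88 and 120 counts under DMSO.

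IL16 encodes a cytokine that binds CD4. Its 5'-most bin (chr15:81159575-81160000, plus strand) lies 22599 bases from the next bin. K562 libraries held 24, 23 and 20 counts there under DNMT1i and 1, 1 and 2 under DMSO. The share was 10.3% ± 0.999 against 0.777% ± 0.369 (log2 change in odds 3.81 ± 0.42, adjusted p = 0.0062), and the other bins differed 1.05-fold. In HCT116 the bin held 21, 34 and 22 counts under DNMT1i and 0 under DMSO, and these were all the counts of the gene in the treated libraries, so no test against other bins was possible there. The speckle clone held 40, 30 and 53 counts under DMSO, above both K562 groups, at a share of 4.54% to 7.01%.

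FDFT1, squalene synthase, rose in both lines: 306, 271 and 314 counts against 22, 12 and 13 in K562 (log2 change in odds 4.44 ± 0.16, adjusted p = 2.9e-07) and 268, 344 and 287 against 1, 1 and 2 in HCT116 (6.69 ± 0.28, adjusted p = 8.4e-12).

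FADS2, a fatty acid desaturase, was the lower bin in K562, and its count hardly moved. The bin (chr11:61816256-61816402, plus strand), which overlaps a bin of a gene on the opposite strand, held 35, 47 and 35 counts under DNMT1i and 70, 34 and 51 under DMSO, and these counts overlap. The other FADS2 bins rose 6.38-fold, from 39.3 to 251 CPM. The share thus fell from 3.41% ± 0.686 to 0.401% ± 0.0784 (log2 change in odds -3.16 ± 0.21, adjusted p = 1.4e-04), without overlap. In HCT116 the bin held 5, 6 and 5 counts against 10, 9 and 1.

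**Figure D2:**
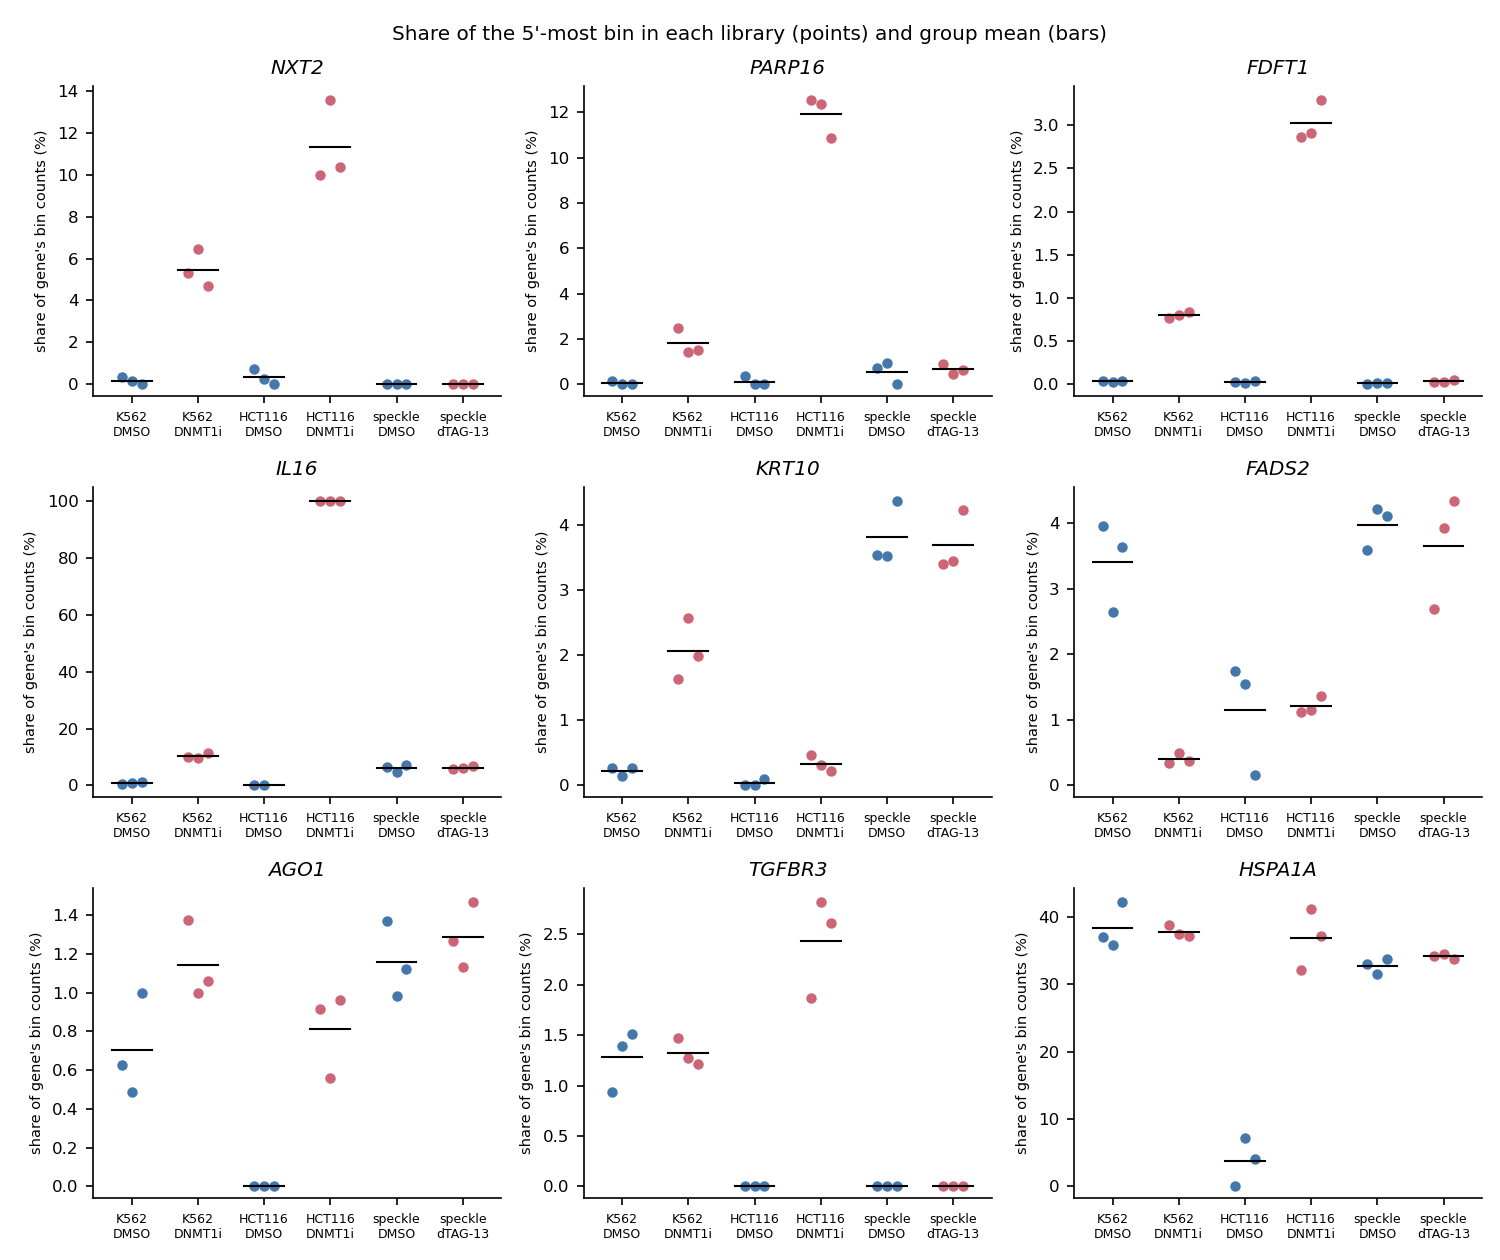
Share of the gene's bin counts that fall in the 5'-most bin (%, vertical axes, each on its own scale) for 9 genes in the 6 groups; points are libraries and bars are group means. NXT2 and FDFT1 are near 0 without the inhibitor, whereas AGO1 and HSPA1A are low in HCT116 DMSO and already present in K562 DMSO.

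Upon DNMT1 inhibition in HCT116, 28 of 3582 tested 5'-most bins rose in share and 21 fell. Over all bins tested, 0.489% were called higher and 0.286% lower, so that 5'-most bins were called in 0.782% and 0.586% of tests. The largest rises in share were in HSPA1A, PARP16, ARC, NXT2, BIK, CPEB4, FDFT1 and MRPS36, and the largest falls in MIR23AHG, H2BC5, CELSR3, NR2F1, RCN1 and RNF149. DESeq2 called 17 (13 higher and 4 lower), and first exon blocks turned the majority, with 52 higher and 67 lower. The count also rested on single libraries: it was 71, with 52 higher and 19 lower, without DMSO replicate 2, 82, with 27 higher and 55 lower, without DNMT1i replicate 2, and 22, 30, 29 and 23 without DMSO replicate 1, DMSO replicate 3, DNMT1i replicate 1 and DNMT1i replicate 3. ALDOA, FDFT1, HSPA1A, MYO1C, NXT2, PARP16 and PCDH7 were called in each of those refits and in every other alternative that gave them a value, and the other 13 genes named by rule and called each lost the call in 1 to 10 refits.

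PARP16, an ADP-ribosyltransferase of the endoplasmic reticulum, had an upstream exon that was almost unread under DMSO. The bin (chr15:65300197-65300618, minus strand) is a 422-base noncoding exon, 13313 bases ahead of the next bin and 13735 bases ahead of the canonical start. HCT116 libraries held 55, 75 and 54 counts there under DNMT1i and 1, 0 and 0 under DMSO. The ratio of summed counts was 172, with a 95% interval of 30.6 to 6844 that covers counting error only. The share was 11.9% ± 0.915 against 0.119% ± 0.207 (log2 change in odds 6.52 ± 0.49, adjusted p = 1.5e-07), and the other bins changed 1.38-fold. In K562 the bin held 15, 7 and 9 counts against 1, 0 and 0, which do not overlap, but the change was not called (adjusted p = 0.091).

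Several other bins that were nearly or wholly unread under DMSO rose in HCT116 while their genes were already expressed. PCDH7, a protocadherin outside the gene clusters, held 58, 95 and 48 counts against 0, 0 and 1 (ratio 188, interval 33.4 to 7473; adjusted p = 4.8e-08), with other bins at 106 CPM in both groups; its bin overlaps a bin on the opposite strand. MYO1C, an unconventional myosin, held 49, 101 and 87 against 1, 0 and 2 (ratio 74, interval 25 to 361; adjusted p = 7.1e-07). The MYO1C bin contains the annotated canonical start, and its share was still 0.428% ± 0.0926 under DNMT1i. AGO1, an Argonaute protein of RNA silencing, held 23, 19 and 26 counts against 0 in every DMSO library, at least 21.2-fold higher when 3 counts over the group are allowed for (adjusted p = 2.0e-04). TGFBR3, the TGF-beta co-receptor betaglycan, held 18, 29 and 26 against 0, at least 22.8-fold higher (adjusted p = 0.0025), while its other bins rose 2.92-fold. AADAT, an aminotransferase of kynurenine metabolism, AEBP2, an accessory subunit of Polycomb repressive complexes, and SHTN1, a regulator of neuronal polarity, were likewise at 0 under DMSO, and their bins were at least 16.9-, 18.1- and 17.5-fold higher. NPR2, a natriuretic peptide receptor, and SQOR, a mitochondrial sulfide oxidoreductase, held 1 and 2 counts over the DMSO group and 31 and 49 over the DNMT1i group. As in TGFBR3, the other bins of MYO1C, AADAT, SHTN1, NPR2 and SQOR also rose, by more than 1.5-fold. AGO1, TGFBR3, AADAT, AEBP2, SHTN1, NPR2 and SQOR are named after their values were seen.

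HSPA1A, the inducible HSP70 chaperone, had the largest rise in share, from 3.71% ± 3.58 to 36.8% ± 4.54 (log2 change in odds 3.65 ± 0.60, adjusted p = 0.0029). Its bin held 159, 278 and 197 counts against 0, 2 and 1, and its other bins rose 14.1-fold. HSPA1A has a near-identical copy, HSPA1B, and reads that match both can be split or lost, so these values are uncertain.

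In BIK, ARC and CPEB4 the bin and the body of the gene also rose together, with the bin ahead. BIK, a pro-apoptotic protein whose 54-base bin (chr22:43110750-43110803, plus strand) contains the start of its 1 annotated transcript, held 48, 88 and 57 counts against 16, 17 and 14. Its share went from 5.38% ± 0.851 to 11.9% ± 1.27 (log2 change in odds 1.27 ± 0.22, adjusted p = 0.0062), with the bin 3.78-fold and the other bins 1.58-fold higher. ARC, an activity-regulated cytoskeletal protein, went from 33.1% ± 2.92 to 44.6% ± 2.71 (adjusted p = 0.014), and CPEB4, an RNA-binding protein that controls polyadenylation in the cytoplasm, from 2.69% ± 1.08 to 6.56% ± 0.463 (adjusted p = 0.012). In all, among the 28 higher bins, 13 rose by more than 1.5-fold in a gene whose other bins did so as well, 9 rose while the others stayed within 1.5-fold, 3 stayed within 1.5-fold while the others fell (NCAPD2, NSMCE1 and RAMP1), and in 3 both stayed within it (HMGB2, RPL21 and RPL23).

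Bins with small shares were also called, among them MRPS36, TNFRSF1A and NSMCE1. The 26-base bin of MRPS36 went from 52, 57 and 50 to 86, 115 and 93 counts (adjusted p = 0.022), but the change was gone when contiguous bins were joined into a first exon block (log2 change in odds -0.0076, adjusted p = 0.99). TNFRSF1A, a receptor for tumor necrosis factor, held 38, 40 and 29 counts against 6, 13 and 18 (log2 change in odds 1.47 ± 0.28, adjusted p = 0.012). NSMCE1, a subunit of the SMC5/6 complex, kept its bin level (1.04-fold) while its other bins fell from 149 to 74.4 CPM (log2 change in odds 1.05 ± 0.23, adjusted p = 0.035).

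**Figure D3:**
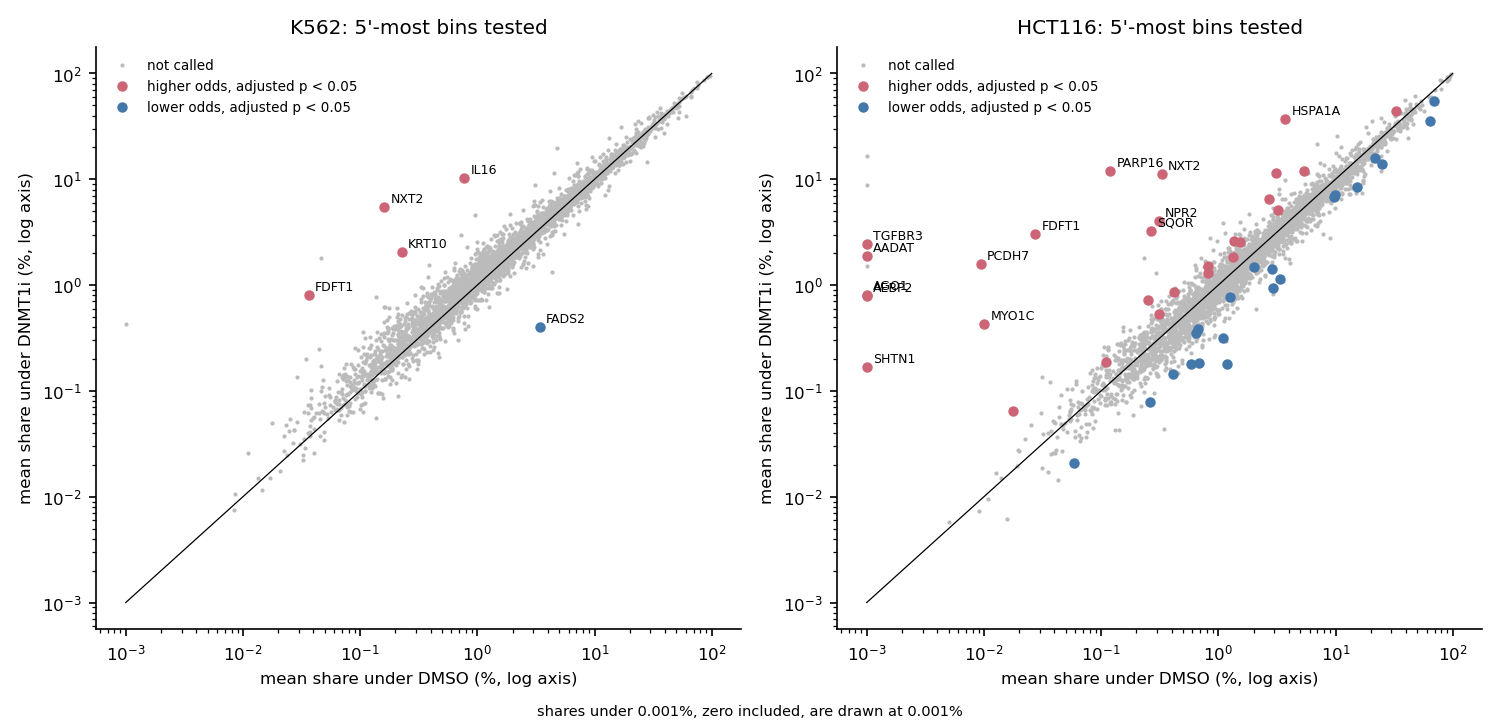
Mean share of the 5'-most bin under DMSO (horizontal axis) and DNMT1i (vertical axis), both in % on log axes, for the 3429 bins tested in K562 and the 3582 tested in HCT116; shares under 0.001% are drawn at 0.001%, and the line marks equal shares. Red and blue points are bins called higher and lower, and the 5 red points at the left edge of the HCT116 panel are called bins without a DMSO count.

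The 21 bins that fell in HCT116 did so in several ways. In 8 the bin fell by more than 1.5-fold in a gene whose other bins stayed within it (ALDOA, ARHGEF19, CCNB1, CNP, EIF4A3, NBR1, PDP1 and PPP4R3B). ALDOA, the glycolytic aldolase, held 20, 16 and 21 counts against 41, 67 and 62, without overlap, and its share was 0.182% ± 0.0506 against 0.689% ± 0.145 (log2 change in odds -1.95 ± 0.23, adjusted p = 8.9e-05); the bin overlaps one on the opposite strand. EIF4A3, the helicase of the exon junction complex, held 6, 17 and 18 against 34, 40 and 26 (adjusted p = 0.012). In 2 the whole gene fell and the bin fell further: NR2F1, an orphan nuclear receptor, held 42, 58 and 39 counts against 244, 352 and 249 in its bin, and its share was 8.46% ± 0.87 against 15.3% ± 2.19 (adjusted p = 0.0051). The other gene of this kind was SNCG, a synuclein.

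In the remaining falls the body of the gene rose or both parts moved little. The share of MIR23AHG, the host of a microRNA cluster, went from 64.0% ± 2.78 to 35.8% ± 5.2 as its bin fell to 0.613-fold and its other bins rose 1.91-fold (log2 change in odds -1.65 ± 0.31, adjusted p = 0.010). The same pattern was found in FLNA and LIG4. H2BC5, a histone H2B gene, rose in its bin (2.19-fold) but more in its other bins (3.87-fold), and so did TIMP1. CELSR3, an adhesion receptor of the cadherin family, went from 25.1% ± 1.47 to 13.9% ± 3.45 (adjusted p = 0.011), RCN1, a calcium-binding protein of the endoplasmic reticulum, from 21.5% ± 0.151 to 16.0% ± 2.91 (adjusted p = 0.044), and RNF149, a RING-type ubiquitin ligase, from 9.79% ± 0.179 to 6.74% ± 0.573 (adjusted p = 0.038). RCN1 lost its call in 10 refits and RNF149 in 8, DESeq2 among them.

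**Figure D4:**
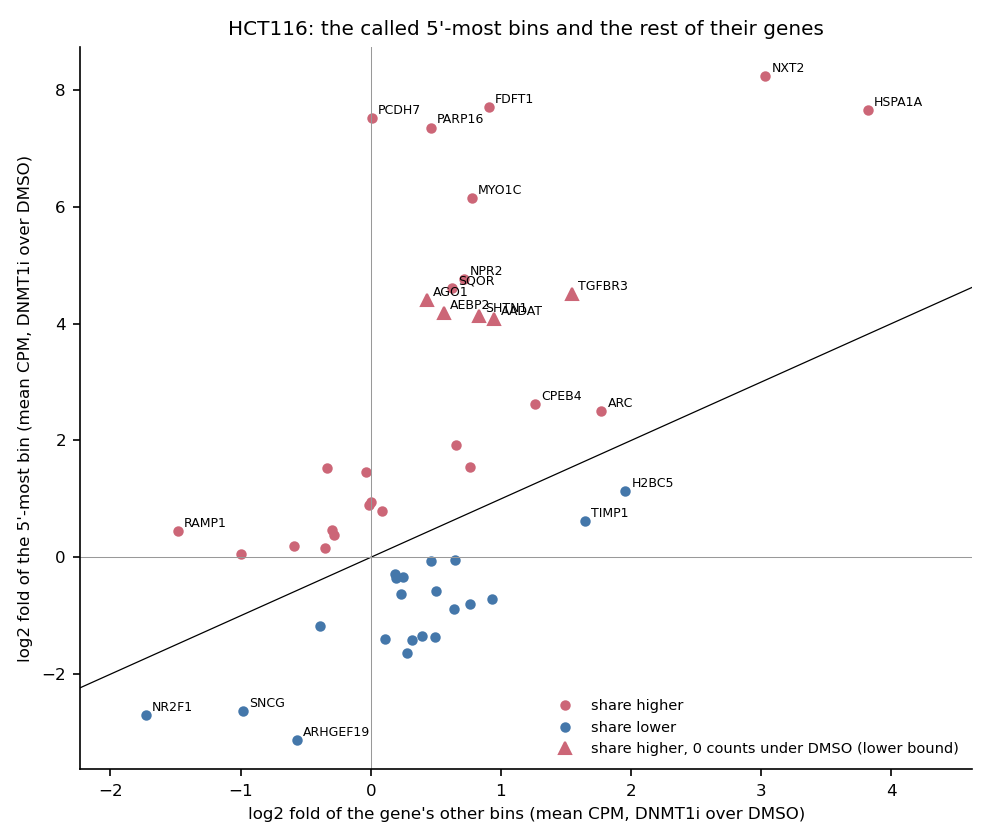
The 49 called 5'-most bins in HCT116: log2 fold of the other bins of the gene (horizontal axis) and of the 5'-most bin (vertical axis), from mean CPM under DNMT1i over DMSO; triangles are bins with 0 DMSO counts, drawn at their lower bound, and the slanted line marks equal folds. NXT2 and HSPA1A lie far to the right because the rest of the gene also rose, whereas PCDH7 and PARP16 lie near 0 on the horizontal axis.

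CpG-rich windows were less common upstream of the called bins than upstream of the tested ones. In HCT116, 15 of 28 higher bins (53.6%) and 13 of 21 lower bins (61.9%) had one, against 80.6% of the tested bins and 40.0% of all 29191. Separate exons were 42.9% of the higher bins and 47.6% of the lower ones, against 32.4% of those tested. These are counts on few bins and were not tested.

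Among genes silent without the inhibitor, 5'-most bins were read from 0. With 0 counts in every DMSO library and at least 5 in every DNMT1i library, 18 of 29191 5'-most bins appeared in K562, against 0.0995% of all bins of the same genes, and 130 appeared in HCT116, against 0.613%. As a share, 0.0617% and 0.445% of the 5'-most bins appeared. The reverse pattern was met by 0 bins in K562 (0.0% of all bins) and by 1 in HCT116, the 5'-most bin of ANKRD22, which was the only such bin of any position (0.000163%). In 10 of the 130 HCT116 genes the other bins averaged at least 10 counts in both groups (AADAT, AEBP2, AGO1, DES, GDA, HOXB2, ID4, RPL22, SHTN1 and TGFBR3), and in the rest the gene body was below that in a group as well. The median share of the appearing bins was 12.4% in HCT116 and 11.6% in K562. Of the 130 bins, 89 (68.5%) belonged to protein-coding genes, against 61.1% of all 5'-most bins, 31 (23.8%) lay on chromosome X, against 3.49% of all, and 7 were in genes of the germline and cancer-testis list, which holds 27 such bins.

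The 5'-most bins of 10 genes appeared in both lines: CT45A1, FER1L6-AS2, FMR1NB, LINC01091, LXN, PAGE2B, PDCL2, PNMA6E, RHOXF1 and TEX13D. This is 10 of 18 in K562 and 10 of 130 in HCT116. RHOXF1, a homeobox gene of the germline, held 43, 62 and 45 counts in K562 and 38, 66 and 47 in HCT116. Its first exon took 53.7% ± 1.84 of the gene's counts in K562 and 54.0% ± 7.51 in HCT116. LXN, the carboxypeptidase inhibitor latexin, held 43, 38 and 45 counts in K562 and 15, 24 and 19 in HCT116, at shares of 19.5% ± 3.17 and 22.8% ± 1.68. TEX13D, a testis-expressed gene, held 40, 29 and 44 counts in K562 and 228, 382 and 226 in HCT116. Its shares were 44.3% ± 11.1 and 40.7% ± 5.33. In RHOXF1, LXN and TEX13D alike, the shares of the lines overlapped. The cancer-testis genes CT45A1, PAGE2B and PNMA6E have close copies on chromosome X, and their counts are uncertain. In HCT116 the list of genes silenced by promoter methylation in colon cancer contributed SFRP1, a secreted Wnt antagonist (41, 71 and 46 counts), ID4, an inhibitor of helix-loop-helix factors (21, 27 and 25), and TFPI2, a protease inhibitor (6, 7 and 7). All genes of this paragraph are named after their values were seen.

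Degradation of SON and SRRM2 for 6 h gave no called 5'-most bin among 3635 tested, against 0.0611% of all bins. In edgeR's quasi-likelihood test the smallest adjusted p was 0.060, and 232 bins (6.38%) had an unadjusted p under 0.05, against 6.34% of all bins. DESeq2 called 0, the edgeR exon usage test 1 and first exon blocks 3. With terms for replicate number added to the model (a replicate block), 52 were called, 51 of them higher. The same block raised the calls over all bins from 131 to 3924. The labels do not say whether same-numbered cultures belong together, so the count depended on the model. SON itself was read in its 5'-most bin at 16 to 57 counts per library in wild-type cells and at 0 to 5 in the clone, whose degron sits at the N-terminus of SON. The bin had too few counts in the clone to be tested, and the knock-in and the choice of clone cannot be told apart. SRRM2, CTCF and DNMT1 had 0 to 8 counts in their 5'-most bins in any library and were not tested. UBE2C, a ubiquitin-conjugating enzyme of mitosis, held 4, 11 and 5 counts under DNMT1i and 0 under DMSO in K562, and its other bins rose from 0.252 to 34.2 CPM.

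Position within the gene went with the direction of small changes. In K562 71.8% of the tested 5'-most bins had a higher odds estimate under DNMT1i (median log2 change 0.15), against 43.1% of the 3'-most bins. In the speckle clone the percentages were 68.3% (median 0.13) and 26.0% (median -0.16), and in HCT116 they turned, to 42.6% (median -0.07) and 62.3% (median 0.10). The 5'-most and 3'-most bins thus leaned in opposite directions in every comparison, the comparison of lines included (64.1% and 39.4%). Bins share libraries, so these percentages carry no test, and the part of transcript-end coverage in them was not tested.

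**Figure D5:**
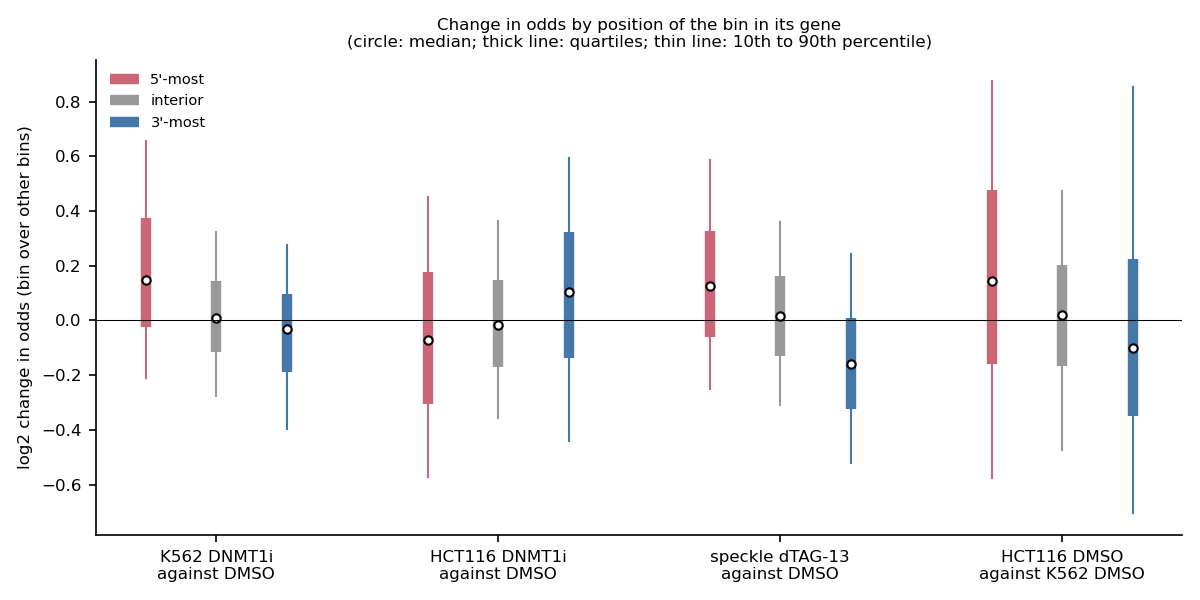
Log2 change in the odds of 5'-most, interior and 3'-most bins (vertical axis) in 4 comparisons; circles are medians, thick lines quartiles and thin lines the 10th to 90th percentiles. Medians of 5'-most and 3'-most bins lie on opposite sides of 0 in each comparison, and HCT116 DNMT1i is reversed relative to the other 3.

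The lines differed in their 5'-most bins without any inhibitor. Between HCT116 DMSO and K562 DMSO, 97 of 3224 tested bins (3.01%) were higher in HCT116 and 66 (2.05%) lower. Over all bins tested, 1.58% were called higher and 1.84% lower, so the share of lower bins was near that of all bins. The 3'-most bins were called more often, in 10.2% of tests against 5.06% for the 5'-most bins. The count was 361 without K562 DMSO replicate 3, 87 without HCT116 DMSO replicate 2, 89 without HCT116 DMSO replicate 3, and 103 and 108 without K562 DMSO replicates 1 and 2. The 2 lines differ in origin and in every culture, so line and culture set cannot be told apart.

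Among bins lower in HCT116, several were unread there. GDA, a guanine deaminase, held 0 counts in HCT116 DMSO and 65, 55 and 35 in K562 DMSO, at least 50.8-fold lower (adjusted p = 1.4e-07), although its other bins were 2.66-fold higher in HCT116. LEPR, the leptin receptor, held 0, 1 and 0 against 232, 188 and 75 (log2 change in odds -5.05 ± 0.65, adjusted p = 3.0e-04). LAMTOR5-AS1, an antisense transcript, held 2, 3 and 7 against 57, 45 and 35 and went from 22.5% ± 2.17 of the gene in K562 to 3.72% ± 2.09 in HCT116. SESN1, a stress-induced sestrin, was at 9.99% ± 1.09 in K562 and 3.89% ± 0.677 in HCT116 (adjusted p = 0.0023). PTMAP5 and UBBP4, both pseudogenes with expressed parents, and FAM72D, one of several near-identical genes, were also lower, and their counts are uncertain; FAM72D lost its call in 10 refits and UBBP4 in 2. Of 26 genes named by rule and called between lines, 14 were called in each refit that gave them a value.

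Among the 97 bins higher in HCT116, 27 stayed within 1.5-fold while the other bins were lower by more than that, 15 were higher while the others were lower, and 29 were higher while the others stayed within 1.5-fold. In HBG2, a fetal globin, the 5'-most bin lies 252008 bases upstream of the next, and it held 158, 130 and 190 counts in HCT116 and 214, 174 and 149 in K562. Its share was 78.2% ± 5.56 against 4.11% ± 0.331 (log2 change in odds 6.41 ± 0.19, adjusted p = 4.5e-10), and the other bins were at 1.2 CPM in HCT116 and 114 CPM in K562. ABL1, whose downstream exons K562 also expresses within the BCR::ABL1 fusion, held 50, 56 and 42 counts against 30, 23 and 29 in an exon 122238 bases ahead of the canonical start, and its other bins were at 44.8 against 218 CPM (share 2.97% ± 0.389 against 0.345% ± 0.0156, adjusted p = 2.7e-07). NET1, a guanine nucleotide exchange factor, gave 1.57% ± 0.189 against 0.295% ± 0.0244 (adjusted p = 1.2e-06), and SNHG3, a snoRNA host, 9.65% ± 4.44 against 2.83% ± 0.18 (adjusted p = 4.6e-04).

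In others the first exon itself was higher in HCT116. PLEKHA4, a membrane-binding protein with a pleckstrin homology domain, held 53, 57 and 53 counts against 15, 10 and 12 while its other bins were 0.833-fold (share 13.3% ± 2.14 against 2.72% ± 0.137, adjusted p = 2.5e-05). TPM4, a tropomyosin, held 8, 18 and 8 against 0, at least 11.5-fold higher (adjusted p = 0.0014). FAT1, an atypical cadherin, held 313, 572 and 475 counts against 1, 3 and 0, in a gene whose other bins were 27.4-fold higher in HCT116. The rule also named ARMCX5-GPRASP2, MSL3P1, TXNDC5, DLGAP1-AS2, PSMA3-AS1 and RPS2 among the rises, of which TXNDC5 (adjusted p = 0.048) lost its call in 10 refits.

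The effect of DNMT1i was compared between the lines with an interaction term, which used all 12 wild-type libraries. It was called in 5 of 3343 5'-most bins, against 0.0388% of all bins. In RPL22, HSPA1A, GDA and TGFBR3 the fitted change in odds was higher in HCT116 than in K562. Their log2 changes in K562 were -0.48, -0.04, 0.44 and 0.07, without a call. In ALDOA the odds fell in HCT116 (log2 change -1.95), and the change in K562 was -0.22, without a call. RPL22, a protein of the large ribosomal subunit, held 8, 9 and 6 counts under DNMT1i and 0 under DMSO in HCT116, and 26, 24 and 32 against 33, 31 and 25 in K562 (difference in log2 odds adjusted p = 0.0039). The RPL22 bin is contiguous with the next bin and overlaps a bin on the opposite strand. GDA held 6, 8 and 7 against 0 in HCT116 and 60, 44 and 57 against 65, 55 and 35 in K562 (adjusted p = 0.035). The RPL22 and GDA bins averaged 3.83 and 3.5 counts in HCT116, under the minimum of 5, so neither was tested within that line. The interaction test took this minimum over both lines, so RPL22 and GDA entered it and its refits through their K562 counts. TGFBR3 held 50, 37 and 42 against 30, 39 and 33 in K562 (adjusted p = 0.038), and 0 in all 6 libraries of the speckle clone. HSPA1A, uncertain for its copy, held 992, 519 and 1156 counts in K562 DMSO. In RPL22, GDA and TGFBR3, K562 cells had counts in the bin under DMSO and HCT116 cells had them under DNMT1i only. The same was found for AGO1, with 22, 13 and 24 counts in K562 DMSO (difference in log2 odds adjusted p = 0.052 in the interaction test). HCT116 DMSO is shared by this test and the comparison of lines. RPL22 was called in each refit that gave it a value (not the one with a bin mean of 20), whereas HSPA1A, ALDOA, TGFBR3 and GDA lost the call in 7, 10, 10 and 12 refits, and the count of 5 went down to 1 without HCT116 DMSO replicate 2, K562 DNMT1i replicate 1 or K562 DNMT1i replicate 3. It was 2 without HCT116 DMSO replicate 1 or 3, HCT116 DNMT1i replicate 3 or K562 DNMT1i replicate 2, and 3 without HCT116 DNMT1i replicate 1.

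Of 12 gene lists, few had called 5'-most bins. Among 25 genes of cholesterol synthesis, 10 were tested in K562 and 9 in HCT116, FDFT1 alone was called in each, and the median log2 change in odds was 0.07 and -0.48, against 0.15 and -0.07 over all tested 5'-most bins. At an unadjusted p under 0.05 in edgeR's test were 1 of the 10 and 5 of the 9, against 9.89% and 13.1% of all tested 5'-most bins. Among 61 genes with known alternative promoters, 9 were tested in each line and 0 called, with medians of 0.08 and -0.27; edgeR gave 0 and 1 at an unadjusted p under 0.05. Among 48 speckle and splicing factors, 18, 19 and 21 were tested in K562, HCT116 and the speckle clone and 0 called, with 4, 3 and 2 at an unadjusted p under 0.05. The other 9 lists (DNA methylation, CTCF and cohesin, germline and cancer-testis, imprinted, erythroid and megakaryocyte, colon epithelial, interferon, genes silenced in colon cancer, clustered protocadherins) had 0 to 18 tested members and 0 called in these 3 comparisons. Between lines, EBP and HMGCS1 of cholesterol synthesis, HBG2 and TFRC of the erythroid list and ABL1 and TPM4 of the alternative promoters were higher in HCT116, and KRT18 of the colon list was lower. KRT18 lost its call in 4 refits without single libraries (adjusted p up to 0.40 in edgeR's test), and HMGCS1 and TFRC each lost it in 1 refit.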

How the data were processed

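Poly(A) RNA was sequenced in triplicate cultures, with libraries that carry molecular identifiers. Per the labels and methods, the authors extracted and deduplicated identifiers with UMI-tools 1.1.1, trimmed with cutadapt 2.7, aligned to hg38 with STAR 2.6.0 and deposited whole-number counts per gene and per flattened exon bin of each library; a read can count in several bins. Bin counts summed to 31947596 to 43773260 per library, with 3.3% to 4.4% of counts outside a bin. Whether counting used strand is not stated in these sources. Of bins lying inside an opposite-strand bin, 14256 of 18237 held a count, and overlapping bins are marked. Bin positions came from tables that also hold the authors' comparisons (fold changes and p-values) and 18 per-sample columns, none of which was used. Gene symbols, starts and upstream sequence came from GENCODE 44 and the hg38 reference.

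Each bin was tested against the summed other bins of its gene (terms for library, part and part by condition) with edgeR 4.0.16 in R 4.3.3, on the 6 libraries of a comparison or the 12 wild-type libraries for the difference between lines, with Benjamini-Hochberg adjustment over all bins tested. The test was also run on counts simulated from the HCT116 means. That simulation held no lean by position within the gene, so it does not give the error rate in these libraries. Standard errors are the absolute log2 odds over the square root of F. CPM is counts per 1000000 bin counts of the library (gene counts for markers). Intervals and bounds (95%; 3 counts for a group at 0) cover counting error only. Named genes, among called bins with a mean of at least 20 counts and no overlap of groups in share, were the 8 largest rises and 6 largest falls in share, the next 4 rises and 2 falls in odds, the 6 smallest p for the lines, up to 4 members per list described, and UBE2C, FDFT1, DNMT1, CTCF, SON and SRRM2. Members and lists were chosen with earlier results of these data known. Alternatives were DESeq2 1.42.0, edgeR's diffSpliceDGE under 2 scalings, other count minimums, first exon blocks, a replicate block and leaving out each library. Results on some items are not reported here.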

Additional observations from a re-analysis of the deposited data

Results flagged for a closer look

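The effect of DNMT1i on the odds of the 5'-most bin differed between the lines in 5 genes by edgeR's quasi-likelihood test of the interaction, given as log2 odds in HCT116 minus K562. The fitted value was 6.92 ± 0.89 (SE) for RPL22 (adjusted p = 0.0039), 5.96 ± 1.0 for TGFBR3 (0.038) and 5.53 ± 0.92 for GDA (0.035). In these 3 genes HCT116 DMSO held 0 counts, so the fitted values depend on the prior count and are not bounds on a fold. RPL22 and GDA had too few counts in HCT116 to be tested within that line, and entered the interaction test and its refits through their K562 counts. The RPL22 bin overlaps one on the opposite strand. It was 3.68 ± 0.61 for HSPA1A (adjusted p = 0.024), whose near-identical copy makes the counts uncertain. It was -1.72 ± 0.28 for ALDOA (adjusted p = 0.023), where K562 held 85, 68 and 60 counts under DNMT1i and 82, 76 and 44 under DMSO, and where the bin overlaps one on the opposite strand. RPL22 was called in each refit that gave it a value, and HSPA1A, ALDOA, TGFBR3 and GDA lost the call in 7, 10, 10 and 12 refits, so these differences rest on the libraries and model used.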

How the results depend on the processing

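Calls of 5'-most bins depended on the count minimum, the tool and single libraries. DESeq2 called 17 in HCT116 and 108 between lines. A bin mean of 20 left 31 and 71, and no minimum gave 9 in K562, 112 in HCT116, 1 in the speckle clone and 302 between lines. With first exon blocks in place of bins the counts were 9, 119, 3 and 410, and MRPS36 turned to -0.0076. diffSpliceDGE called 8 in K562 and 1 in the speckle clone under either scaling. Leaving out 1 library gave 4 to 9 in K562, 22 to 82 in HCT116, 0 to 0 in the speckle clone, 87 to 361 between lines and 1 to 7 for the difference of the DNMT1i effect. The difference in median share in HCT116 (0.00619 percentage points) was -0.0513 when counts were pooled over genes, and ranged from -0.00692 to 0.0211 without single libraries, below 0 without DNMT1i replicate 2 or DMSO replicate 1 (-0.00392). The K562 difference in pooled share was 0.0791 with overlapping groups. In HCT116 the calls without a minimum were 56 higher and 56 lower. The causes were not tested.

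The labels do not say whether same-numbered cultures belong together. Same-number correlations of deviations over all bins tested were 0.061, -0.136 and -0.094 in K562 and 0.070, -0.010 and -0.0079 in HCT116. They were 0.016, 0.12 and 0.27 in the speckle clone and -0.023, 0.069 and 0.127 between lines. All were positive in the speckle clone, where pairing by number was not settled. In K562, HCT116, the speckle clone and between lines, 0, 1, 2 and 1 of 6 libraries correlated best with their own number. With a replicate block the calls were 4 in K562, 51 in HCT116, 52 in the speckle clone (51 higher), 234 between lines and 1 for the difference of the effect. Leaving out genes merged in the annotation was not run, as no bin identifier joined genes. Most tested bins had low counts (median 18.2 to 19.5 per library), and 25419 to 25667 of the 29191 bins averaged under 5 counts in a comparison.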
